A study of Mus musculus with 4 samples.

Results

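The transcripts of 9 Toll-like receptors, Tlr1 to Tlr9, and of the co-receptor Cd14 were followed in mouse epidermal Langerhans cells. These 10 genes were chosen by symbol from the 24441 symbols of the expression tables, each listed at 1 locus. RNA had been sequenced from Langerhans cells sorted out of skin when the mice were 4 weeks old. WT denoted wild-type mice, whose labels mention no Cre or floxed allele, and Tfam cKO denoted mice with the genotype CD11cCreTfamfl/fl, in which floxed alleles of Tfam, the gene of a mitochondrial DNA-packaging and transcription factor, are targeted by Cre under control of CD11c. CD11c is carried by dendritic cells and some macrophages as well as by Langerhans cells, so the targeting is not limited to the cells sequenced. Each group had 2 libraries, numbered 1 and 2. Because the labels do not say from which or how many mice a library came, the p-values reflect no more than how these libraries vary.

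Toll-like receptors are membrane proteins that recognise conserved microbial molecules through leucine-rich repeats and signal through a cytoplasmic TIR domain. TLR1, TLR2, TLR4, TLR5 and TLR6 act at the cell surface and bind lipoproteins, lipopolysaccharide or flagellin, whereas TLR3, TLR7, TLR8 and TLR9 sense nucleic acids from endosomes. CD14 is a surface protein that hands lipopolysaccharide and lipoproteins to TLR4 and TLR2. Langerhans cells sit among keratinocytes at the body surface, in contact with skin microbes, and take up antigen there.

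Tlr2 was the member of highest level in every library and Cd14 the next, while Tlr7 and Tlr8 were listed at 0 throughout. None of the 4 members with a mean of at least 1 FPKM (fragments scaled to transcript length and to the mapped fragments of a library), Tlr2, Cd14, Tlr9 and Tlr5, passed the test of Tfam cKO against WT. In limma, 0 of these 4 had an adjusted p below 0.05 and 0 an unadjusted p below 0.05. Over all 10910 tested genes the same adjusted threshold called 0.0183%, or 2 genes, and the unadjusted one 6.21%.

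The promoters of 4 receptors are shown because these genes span the range of levels, from Tlr2 at the top through Tlr9 and Tlr5 to Tlr8, listed at 0. Each line gives the 250 bases before the transcription start, 5′ to 3′ on the gene's strand, from RefSeq on GRCm38.p6. Entries were matched by symbol for 7 of the 10 members, Tlr1, Tlr2, Tlr3, Tlr5, Tlr6, Tlr8 and Tlr9. Capitals mark matches to any of 4 motifs, searched on both strands: GAGGAA for PU.1, a myeloid transcription factor, GGGCGG for Sp1, TGANTCA for AP-1 and the NF-kappa B motif.
Tlr2, chr3:83841609-83841858, - strand: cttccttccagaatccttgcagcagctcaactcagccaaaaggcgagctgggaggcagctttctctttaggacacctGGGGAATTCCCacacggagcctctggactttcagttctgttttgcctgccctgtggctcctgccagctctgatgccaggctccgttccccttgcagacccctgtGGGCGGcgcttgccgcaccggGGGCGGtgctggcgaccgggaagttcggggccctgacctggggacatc
Tlr9, chr9:106222348-106222597, + strand: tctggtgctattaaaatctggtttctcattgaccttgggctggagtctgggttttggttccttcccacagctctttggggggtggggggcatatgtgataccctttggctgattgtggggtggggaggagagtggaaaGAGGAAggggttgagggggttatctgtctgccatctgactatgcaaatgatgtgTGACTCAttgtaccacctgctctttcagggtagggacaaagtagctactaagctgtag
Tlr5, chr1:182954538-182954787, + strand: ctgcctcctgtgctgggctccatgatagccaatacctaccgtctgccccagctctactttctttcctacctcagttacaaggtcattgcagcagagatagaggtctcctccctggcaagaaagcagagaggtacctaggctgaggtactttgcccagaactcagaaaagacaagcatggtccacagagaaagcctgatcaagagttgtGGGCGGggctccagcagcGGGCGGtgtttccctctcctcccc
Tlr8, chrX:167264330-167264579, - strand: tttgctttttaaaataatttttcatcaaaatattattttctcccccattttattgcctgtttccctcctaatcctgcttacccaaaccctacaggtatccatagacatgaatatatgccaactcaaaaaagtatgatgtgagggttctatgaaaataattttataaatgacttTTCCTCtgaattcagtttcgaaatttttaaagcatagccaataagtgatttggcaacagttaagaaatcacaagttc
The Tlr2 window held the NF-kappa B motif as a palindrome read as 2 overlapping matches, GGGGAATTCC from 173 bases before the start and GGGAATTCCC from 172 bases before it. It also held 2 Sp1 matches, as did the Tlr5 window. The Tlr9 window held 1 AP-1 match, TGACTCA, and 1 PU.1 match, and the Tlr8 window 1 PU.1 match on the opposite strand. Among the members whose sequence is not printed, Tlr3 had 1 NF-kappa B match, GGGAGTTTCC, and Tlr1 1 PU.1 match in the first of its 2 windows, while neither window of Tlr6 held any of the 4. Over 32851 mouse promoter windows of that length, the NF-kappa B motif occurred in 3.9%, AP-1 in 6.75%, PU.1 in 23.3% and Sp1 in 32.7%. A match describes letters and was not tied to binding or to a level here.

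The libraries differed in summed FPKM and in depth. Summed FPKM lay between 338783 and 395707, and relative depth, from the width of the authors' Cufflinks intervals over 8261 genes, was 1.36 for WT 2, 0.884 for Tfam cKO 1 and 1.54 for Tfam cKO 2 with WT 1 set at 1. Tfam, the targeted gene, was listed at 3.17 and 1.61 FPKM in the WT libraries and at 1.65 and 1.53 FPKM in those of Tfam cKO, so WT 2 lay within the range of the Tfam cKO libraries and the targeted gene did not separate the groups. Reads from parts of the gene that Cre leaves in place also count towards this value, which therefore does not check the deletion, and every direction below rests on the labels. Langerin (Cd207), Epcam and all other Langerhans cell markers were present, 14 of 14 with a mean of at least 1 FPKM. Library 1 and library 2 of each group differed in sex-linked transcripts. The Y-linked Ddx3y, Eif2s3y, Kdm5d and Uty were listed at 0 in both libraries numbered 1 and were present in both numbered 2. Xist was listed at 64.6 and 5.38 FPKM in the WT libraries and at 39.0 and 45.6 FPKM in those of Tfam cKO. Both libraries numbered 2 thus held Xist beside Y-linked transcripts, and Xist was not lower in Tfam cKO 2 than in Tfam cKO 1. The spread between the libraries of a group is therefore not technical alone.

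**Figure D1:**
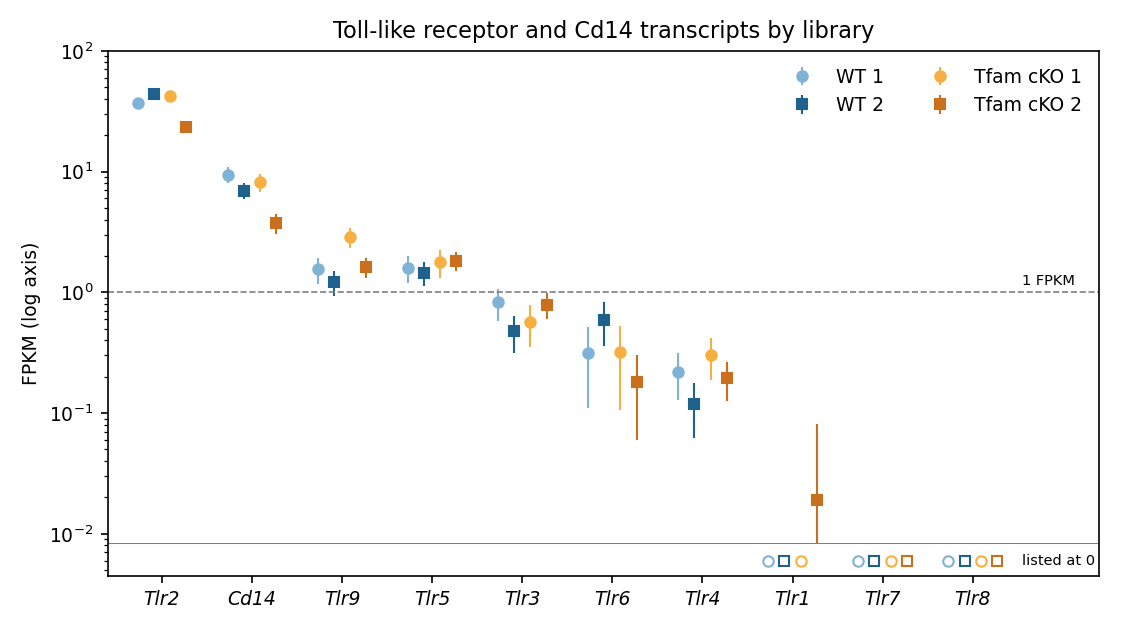
FPKM of each member in each library on a log axis, members ordered by their mean over the 4 libraries. Bars are the authors' 95% Cufflinks intervals, open symbols at the bottom mark values listed at 0, and an interval that reaches 0 is drawn down to the line above them. Tlr2 lies between 23.3 and 43.9 FPKM, above Cd14 in every library, and Tlr7 and Tlr8 are listed at 0.

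Among the surface receptors, Tlr2, the receptor for bacterial lipoproteins, gave 36.9 FPKM for WT 1, 43.9 for WT 2, 42.2 for Tfam cKO 1 and 23.3 for Tfam cKO 2. The first 3 of these libraries lay close together, Tfam cKO 2 lay below them, and Tfam cKO 1 lay between the WT libraries, so the groups overlapped. The Cufflinks interval of 22.0 to 24.6 FPKM in Tfam cKO 2 did not reach those of the other libraries, the lowest of which began at 34.8, so the gap between the Tfam cKO libraries was wider than counting error. The group mean of Tlr2 was 40.4 ± 4.95 FPKM for WT (SD, n = 2) and 32.7 ± 13.3 FPKM for Tfam cKO (SD, n = 2). Its log2 fold change, taken on log2(FPKM + 1) as all below, was −0.35 with a 95% interval of −0.96 to 0.26 (limma adjusted p = 0.91). Without Tfam cKO 2 it was 0.066, of the opposite sign, and without Tfam cKO 1 it was −0.76. An interval this wide does not show equal levels.

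TLR2 signals as a heterodimer with TLR1 or TLR6. Tlr6 was listed at 0.312 and 0.594 FPKM in the WT libraries and at 0.317 and 0.180 FPKM in those of Tfam cKO, and Tlr1 at 0 in 3 libraries and at 0.0190 FPKM in Tfam cKO 2. Tlr2 was therefore 73.9 to 133 times as high as Tlr6 within a library. The Tlr6 values rested on few fragments, an effective 9.59 and 25.8 in the libraries of WT and 9 in each of Tfam cKO, taken from the interval widths, and neither gene reached the minimum for testing. Both genes lie on chromosome 5 and are close copies of each other: 13.6% of all runs of 50 bases in Tlr1 transcripts also occur in Tlr6 transcripts. How reads shared by such copies were assigned is not given in the sources used here, so the split between Tlr1 and Tlr6 is uncertain.

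Tlr4, the lipopolysaccharide receptor, was listed at 0.220 and 0.120 FPKM in the WT libraries and at 0.303 and 0.195 FPKM in those of Tfam cKO. The groups overlapped, and Tlr2 was 119 to 367 times as high. Ly96, chosen after its values were seen, encodes MD-2, the extracellular partner that TLR4 needs to bind lipopolysaccharide. It was listed at 3.18 and 1.79 FPKM in the WT libraries and at 7.30 and 3.26 FPKM in those of Tfam cKO (0.80 on the log2 scale, SE 0.32, limma adjusted p = 0.782). The lower Tfam cKO library was close to the higher WT library. The partner was thus listed above the receptor in each of the 4 libraries.

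Cd14 gave 9.42 FPKM for WT 1, 6.95 for WT 2, 8.19 for Tfam cKO 1 and 3.72 for Tfam cKO 2. As for Tlr2, Tfam cKO 2 was the lowest library and Tfam cKO 1 lay between the WT libraries. The interval in Tfam cKO 2, 3.01 to 4.43 FPKM, lay below the other 3, of which the lowest began at 5.90. The group mean of Cd14 was 8.18 ± 1.75 FPKM for WT (SD, n = 2) and 5.96 ± 3.16 FPKM for Tfam cKO (SD, n = 2). The log2 fold change was −0.47 with a 95% interval of −1.15 to 0.22 (limma adjusted p = 0.889). Without Tfam cKO 2 the fold change was 0.014, and without Tfam cKO 1 it was −0.95. The ratio of Tlr2 to Cd14 stayed between 3.91 and 6.32 in the 4 libraries, 5.15 in Tfam cKO 1 and 6.27 in Tfam cKO 2. The library low in both genes, Tfam cKO 2, also had the lowest summed level of the 14 Langerhans cell markers, 25948 FPKM against 28964 to 32691 in the others, and of the 18 genes of tissue dissociation and early stress, 17455 against 18975 to 25245. Among the Langerhans cell markers, Cdh1 and Mfge8 were lowest in WT 2, Csf1r in WT 1 and Ptprc in Tfam cKO 1. The others were lowest in Tfam cKO 2, although Cd74, the largest of them, was close to WT 1, at 9264 against 9289 FPKM. The genes of the stress list did not all follow their sum either. Hspa1a, Hspa1b and Btg2 were lowest in Tfam cKO 2, whereas Fosb, Junb and Zfp36, among others, were lowest in WT 1. The part of either list in the low Tlr2 and Cd14 values was not tested.

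Tlr5, the flagellin receptor, was listed at 1.59 and 1.46 FPKM in the WT libraries and at 1.77 and 1.83 FPKM in those of Tfam cKO. Both Tfam cKO libraries lay above both WT libraries, as they did for 25.4% of all tested genes, while 9.75% lay the other way. The Cufflinks intervals overlapped, with that of WT 2 reaching 1.79 FPKM and that of Tfam cKO 2 beginning at 1.49, at an effective 60.2 to 115 fragments per library. Its group mean was 1.52 ± 0.0931 FPKM for WT (SD, n = 2) and 1.80 ± 0.0414 FPKM for Tfam cKO (SD, n = 2), and the log2 fold change was 0.15 with a 95% interval of −0.29 to 0.59 (limma adjusted p = 0.957). Both Tfam cKO libraries stayed above both of WT after rescaling to equal totals, as they then did for 14.3% of all tested genes. The rescaling lowered the median fold change of all genes by 0.11, and the fold change of Tlr5 was then 0.10 (limma adjusted p = 0.993).

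Among the endosomal receptors, Tlr9, the sensor of unmethylated CpG DNA, had the highest mean. Tlr9 gave 1.55 FPKM for WT 1, 1.22 for WT 2, 2.85 for Tfam cKO 1 and 1.61 for Tfam cKO 2. Tfam cKO 1 was the highest, and Tfam cKO 2 lay just above WT 1. The groups did not overlap, a state shared in this direction by the 25.4% of tested genes given above, but the intervals of WT 1, 1.16 to 1.93 FPKM, and of Tfam cKO 2, 1.31 to 1.92 FPKM, covered nearly the same range. The group mean of Tlr9 was 1.38 ± 0.232 FPKM for WT (SD, n = 2) and 2.23 ± 0.876 FPKM for Tfam cKO (SD, n = 2). The log2 fold change was 0.42 with a 95% interval of −0.13 to 0.97 (limma adjusted p = 0.872). It was 0.14 without Tfam cKO 1 and 0.70 without Tfam cKO 2, so its size depended on which library stood for the group.

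Tlr3, the sensor of double-stranded RNA, was listed at 0.825 and 0.475 FPKM in the WT libraries and at 0.568 and 0.791 FPKM in those of Tfam cKO. Its highest and lowest values were both in WT, and the group means were 0.650 and 0.680 FPKM. Tlr7 and Tlr8, X-linked sensors of single-stranded RNA, were listed at 0 in all 4 libraries. The tables hold no read counts, and no upper limit was worked out for these levels. With no low-value filter Tlr1, Tlr3, Tlr4 and Tlr6 could be fitted as well, and their limma adjusted p was 0.966, 0.984, 0.905 and 0.904.

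**Figure D2:**
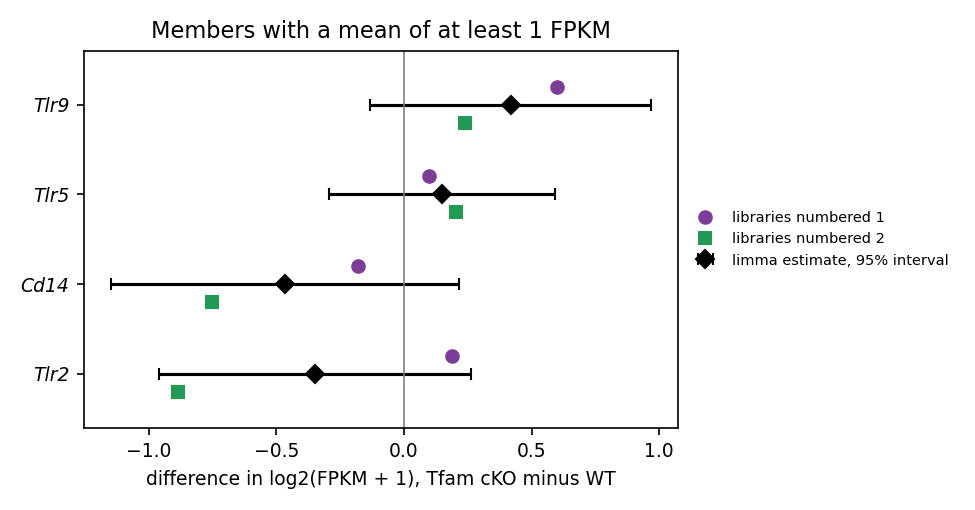
Difference in log2(FPKM + 1), Tfam cKO minus WT, for the 4 members with a mean of at least 1 FPKM. Diamonds are the limma estimates with 95% intervals, and circles and squares are the differences within the libraries numbered 1 and 2. All 4 intervals include 0, and Tlr2 differs by 0.19 within the libraries numbered 1 and by −0.88 within those numbered 2.

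Within the libraries numbered 1 and 2 the log2 differences were 0.19 and −0.88 for Tlr2 and −0.18 and −0.75 for Cd14. They were 0.10 and 0.20 for Tlr5 and 0.60 and 0.24 for Tlr9. Tlr2 thus went opposite ways in the pairs of libraries, and Cd14, Tlr5 and Tlr9 each went the same way in both. The labels do not pair same-numbered libraries, and WT 2 and Tfam cKO 2 differed in the sex-linked transcripts given above.

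Ordered by mean level, the members ran Tlr2 (36.6 FPKM), Cd14 (7.07), Tlr9 (1.81), Tlr5 (1.66), Tlr3 (0.665), Tlr6 (0.351), Tlr4 (0.209) and Tlr1 (0.00475), followed by Tlr7 and Tlr8. FPKM is per length, so these levels can be set beside one another. The library ranges of Tlr2 and Cd14 did not overlap, nor did those of Cd14 and Tlr9, of Tlr5 and Tlr3, or of Tlr4 and Tlr1. Those of Tlr9 and Tlr5 overlapped, as did those of Tlr3 and Tlr6 and of Tlr6 and Tlr4, and no order is given to these neighbours. Tlr2 made up 72.6% to 80.2% of the summed FPKM of the 10 members and stood above 86.7% of the tested genes by its mean. Cd14 stood above 44.8% of them, Tlr9 above 9.4% and Tlr5 above 7.85%. The 5 surface receptors summed to 25.5 to 46.1 FPKM in a library, of which Tlr2 alone gave 23.3 to 43.9 FPKM. The 4 endosomal ones summed to 1.69 to 3.42 FPKM. Apart from Tlr2, no surface receptor was listed above 1.83 FPKM in any library, so the gap between the sums came from Tlr2 and not from the surface receptors as a class.

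The other Toll-like receptors of the mouse were listed below 1 FPKM. Tlr13, which senses bacterial ribosomal RNA, was listed between 0.174 and 0.330 FPKM, a range that overlaps that of Tlr4, and Tlr11 and Tlr12 at 0.168 FPKM or less. None of the 3 reached the minimum for testing.

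Genes that fold, carry and assist the receptors were measured from a list of 10, of which 8 were tested and 0 passed in limma. An unadjusted p below 0.05 was found for 1 of the 8, against 6.21% of all tested genes. The median log2 fold change was 0.15, against 0.07 for all tested genes. Hsp90b1, the endoplasmic reticulum chaperone gp96 that folds most Toll-like receptors, averaged 131 FPKM in WT and 129 in Tfam cKO. Hmgb1, a nuclear protein that activates receptors when released, averaged 65.6 and 66.3 FPKM, and Cnpy3, a cofactor of gp96, 24.4 and 27.8 FPKM. Unc93b1, chosen after its values were seen, escorts the endosomal receptors to their compartment. It was listed at 0.896 and 0.931 FPKM in the WT libraries and at 1.62 and 1.26 FPKM in those of Tfam cKO (log2 fold change 0.35, limma adjusted p = 0.882). The Tfam cKO libraries were both above those of WT for 4 of the 8 tested genes and below for 0, against 25.4% above and 9.75% below over all tested genes. After rescaling to equal totals they were above for 2 of the 8, against 14.3% of all tested genes.

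Of 14 genes that process receptors and nucleic acids in endosomes, 13 were tested and 0 passed. An unadjusted p below 0.05 was found for 2, against 6.21% of all tested genes. The median log2 fold change was 0.16. Ctss, the protease cathepsin S, averaged 295 FPKM in WT and 282 in Tfam cKO, Ctsb, cathepsin B, 85.2 and 115 FPKM, and Atp6ap1, an accessory subunit of the proton pump, 55.3 and 61.0 FPKM. The Tfam cKO libraries were both above those of WT for 6 of the 13 and below for 0 as deposited, against 25.4% and 9.75% of all tested genes. After rescaling they were above for 2 and below for 1, against 14.3% and 19.8%.

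Of 23 adaptors and signalling proteins, 21 were tested and 0 passed. An unadjusted p below 0.05 was found for 3, against 6.21% of all tested genes, and the median log2 fold change was 0.08. The Tfam cKO libraries were both above those of WT for 6 of the 21 and below for 1, against 25.4% and 9.75% of all tested genes. After rescaling they were above for 4 and below for 5, against 14.3% and 19.8%. Myd88, the adaptor of every Toll-like receptor but TLR3, was listed at 24.9 and 31.0 FPKM in the WT libraries and at 29.7 and 32.3 FPKM in those of Tfam cKO, with overlapping groups. Irf5, a transcription factor downstream of Myd88, averaged 26.4 and 32.2 FPKM, and Tab2, an adaptor of the kinase TAK1, 27.6 and 28.4 FPKM. Tirap and Ticam2, bridging adaptors of some of the surface receptors, were chosen after their values were seen. They averaged 0.527 and 0.0664 FPKM in WT and were too low to test. Ticam1, the adaptor of TLR3 and also chosen in this way, was listed at 8.91 and 7.76 FPKM in the WT libraries and at 13.2 and 10.9 FPKM in those of Tfam cKO (log2 fold change 0.48, limma adjusted p = 0.685).

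Of 15 negative regulators, 14 were tested and 0 passed. An unadjusted p below 0.05 was found for 0, against 6.21% of all tested genes, and the median log2 fold change was 0.03. The Tfam cKO libraries were both above for 2 of the 14 and below for 2, against 25.4% and 9.75% of all tested genes. After rescaling they were above for 1 and below for 3, against 14.3% and 19.8%. Nfkbia, the NF-kappa B inhibitor, averaged 550 FPKM in WT and 508 in Tfam cKO, Tnfaip3, the deubiquitinating enzyme A20, 354 and 299 FPKM, and Dok3, an inhibitory adaptor, 114 and 111 FPKM. These 3 genes, named because they were the highest of the list by mean, were listed above every Toll-like receptor in each library. Others of the list, among them Irak3, Sarm1 and Sigirr, were listed below Tlr2.

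Of 25 transcriptional targets of the pathway, 16 were tested and 0 passed. An unadjusted p below 0.05 was found for 4, 2 in each direction, against 6.21% of all tested genes. The median log2 fold change was 0.05. The Tfam cKO libraries were both above for 5 of the 16 and below for 3, against 25.4% and 9.75% of all tested genes. After rescaling they were above for 3 and below for 4, against 14.3% and 19.8%. Tnf, which encodes tumour necrosis factor, was listed at 289 and 353 FPKM in the WT libraries and at 286 and 172 FPKM in those of Tfam cKO, and Tfam cKO 2 was again the lowest library. Cxcl2, a neutrophil chemokine gene, averaged 281 FPKM in WT and 134 in Tfam cKO (−1.06 on the log2 scale, SE 0.20, limma adjusted p = 0.273). Il1b, which encodes interleukin-1 beta and was chosen after its values were seen, stood at 88.7 and 33.8 FPKM in the WT libraries and at 38.9 and 11.0 FPKM in those of Tfam cKO, so the groups overlapped and Tfam cKO 2 was again the lowest (log2 fold change −1.35, limma adjusted p = 0.796). Within the libraries numbered 1 and 2 the log2 differences of Il1b were −1.17 and −1.53, and those of Cxcl2 −1.32 and −0.81. Socs3, an inhibitor of cytokine signalling, averaged 115 and 94.0 FPKM. The genes of tissue dissociation and early stress, 18 of 18 with a mean of at least 1 FPKM, summed to 17455 to 25245 FPKM in a library. The part of dissociation in the levels of these targets and of the negative regulators was not tested. Of the 25 targets, 2 were listed at 0 in each library. After rescaling to equal totals the median fold change of all tested genes was −0.04. The list medians were then 0.05 for receptor partners, 0.06 for endosomal genes, −0.03 for adaptors, −0.07 for negative regulators and −0.05 for targets, so the last 3 turned sign with the scaling.

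**Figure D3:**
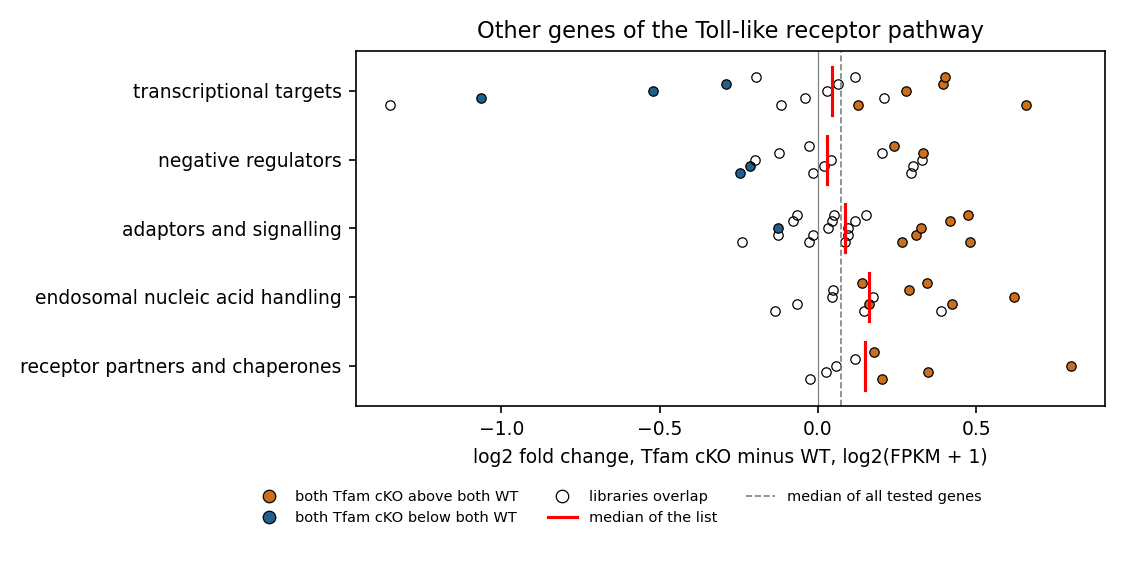
Log2 fold change of each tested gene in 5 lists of the pathway, with the median of each list as a red bar and that of all tested genes, 0.07, as a dashed line. Filled symbols mark genes whose libraries do not overlap between the groups. List medians run from 0.03 to 0.16 as deposited, and those of the adaptors, negative regulators and targets turn negative after rescaling to equal totals.

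The libraries also held transcripts of neighbouring cells, some of which carry Toll-like receptors. Keratinocytes are known to express Tlr2, Tlr3 and Tlr5, and 14 of 14 keratinocyte markers had a mean of at least 1 FPKM, with sums of 14264 and 9867 FPKM in the WT libraries and 14461 and 12960 FPKM in those of Tfam cKO. WT 2, lowest in the keratinocyte sum, was also lowest in Tlr3 and Tlr5 but highest in Tlr2. Not every keratinocyte marker followed the sum: Krt17, Krt79 and Lor were lowest in WT 1, and Krt1 and Krt10 in Tfam cKO 1. The part of keratinocyte RNA in the Tlr2, Tlr3 and Tlr5 levels was not tested. Of 8 markers of dendritic epidermal T cells, 8 had a mean of at least 1 FPKM. They summed to 287 and 337 FPKM in the WT libraries and to 213 and 323 FPKM in those of Tfam cKO. The part of these T cells in the levels of the members was not tested. Fewer cells of a type and less RNA per cell cannot be told apart in bulk samples. Of the 8 markers of monocytes or macrophages reported here, cells rich in Cd14 and Tlr4, 1 reached that level, Lyz2, at 23.6 and 17.5 FPKM in the WT libraries and at 35.2 and 27.7 FPKM in those of Tfam cKO. Cd163 and Fcgr1 were listed at 0, and the part of such cells in the Cd14 and Tlr4 values was not tested. Of 8 neutrophil markers 1 reached a mean of 1 FPKM, S100a8, with sums of 1.77 and 3.79 FPKM in the WT libraries and 0.0497 and 4.99 FPKM in those of Tfam cKO, and Retnlg, Ly6g and Elane were listed at 0. Plasmacytoid dendritic cells carry high Tlr7 and Tlr9, and 3 of 6 of their markers reached it, summing to 575 and 437 FPKM in the WT libraries and to 670 and 615 FPKM in those of Tfam cKO. Most of that sum was Ly6d, which keratinocytes also express, at 432 to 666 FPKM, whereas Siglech was at 0.338 and 0.0824 FPKM in the WT libraries and at 0.892 and 0.587 FPKM in those of Tfam cKO, and Klk1 was listed at 0. Siglech, like Tlr9, was highest in Tfam cKO 1 and lowest in WT 2. Other markers of the list ordered the libraries otherwise: Ccr9 was highest in WT 2, at 0.119 FPKM, and lowest in Tfam cKO 2, at 0.0344, Runx2 was lowest in Tfam cKO 1, at 0.889, and Tcf4 lay between 2.44 and 2.78 FPKM. The part of such cells in the Tlr9 values was not tested. The 3 B cell markers reported here, of another Tlr9-rich cell, summed to 0.235 FPKM or less, with Ms4a1 listed at 0.

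**Figure D4:**
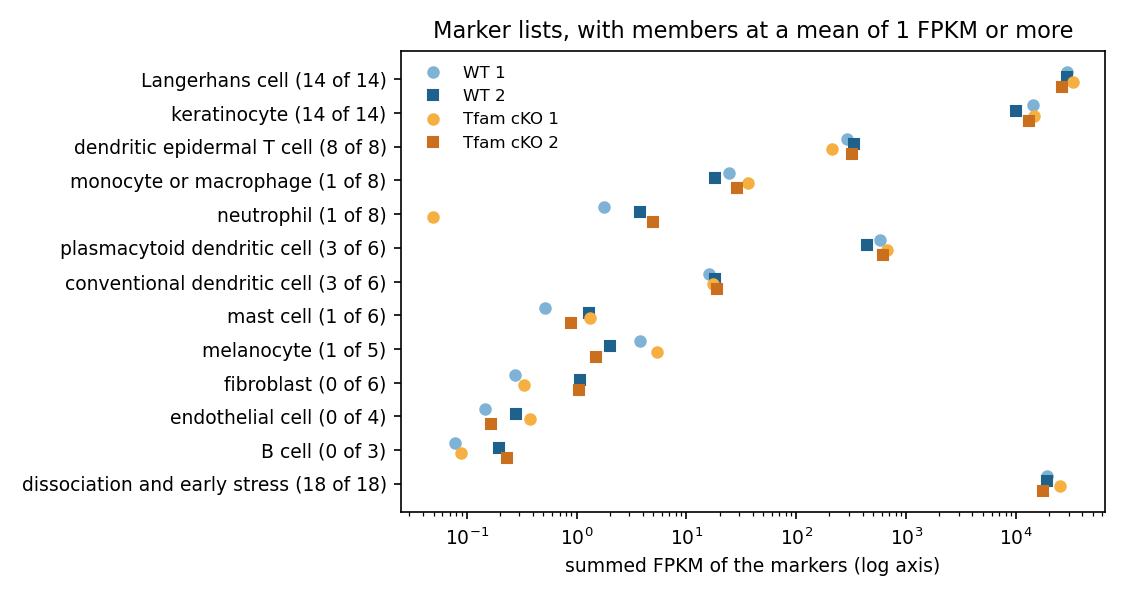
Summed FPKM of each marker list in each library on a log axis, with the number of markers at a mean of 1 FPKM or more in brackets. The monocyte or macrophage and B cell sums hold only the markers reported here and are not totals of the lists. Langerhans cell markers sum to 25948 to 32691 FPKM and keratinocyte markers to 9867 to 14461 FPKM.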

How the data were processed

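Langerhans cells were sorted from epidermal suspensions, RNA was extracted with Trizol and libraries were made with the NEBNext Ultra kit, per the labels' protocols. The deposited values are FPKM, made by the authors in Cufflinks, per the file headers, and each carries a 95% interval. CASAVA, Cufflinks and mm10 are named without versions in the submitters' processing notes. The aligner, the annotation and the use of strand were not given in the sources used here. Positions in the tables overlapped the gene of that name in GENCODE M21 (GRCm38) for 11.5% of 23597 symbols and for 0 of the 10 members, so genes were matched by symbol and no position from the tables is given.

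Loci of a symbol were summed. Genes with a mean of at least 1 FPKM (10910) were tested as log2(FPKM + 1), Tfam cKO against WT with 2 libraries in each group, in limma 3.58.1 (R 4.3.3), letting the variance follow the mean, at a Benjamini-Hochberg adjusted p of 0.05. Read depth is unknown. Effective fragments are the squared ratio of a value to its standard error, taking each Cufflinks bound to lie 2 standard errors from the value, and like the intervals cover counting error only. The members and lists were chosen with earlier results of these data known. Named genes are the 10 members, Tfam and, from each pathway list, called genes or, with none called, the 3 highest by mean FPKM. Other pathway genes named in the text (Ly96, Unc93b1, Tirap, Ticam2, Ticam1 and Il1b) were chosen after their values were seen. Tests were read for the members against all tested genes, and no list was tested as a set. The alternatives tried were rescaling to equal totals, quantile normalization, other filters and pseudocounts, robust moderation, no mean trend, a block for the replicate number, the highest locus only and leaving out each library. Plots were made in Python 3.11.15 with matplotlib 3.10.9. Members of the monocyte or macrophage and B cell marker lists that are not reported here were left out of those lists' counts and sums.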

Additional observations from a re-analysis of the deposited data

How the results depend on the processing

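Of 54 fold changes of Tlr2, Cd14, Tlr5 and Tlr9 under the alternatives, 52 kept their sign, and none passed the adjusted threshold (limma adjusted p from 0.0922 to 1.0). The exceptions in sign were Tlr2, at 0.066, and Cd14, at 0.014, both without Tfam cKO replicate 2. Leaving out each library gave ranges of −0.76 to 0.066 for Tlr2, −0.95 to 0.014 for Cd14, 0.11 to 0.19 for Tlr5 and 0.14 to 0.70 for Tlr9, and the other settings −0.48 to −0.31, −0.63 to −0.29, 0.06 to 0.23 and 0.18 to 0.61. No member was called in any setting. Rescaling to equal totals raised every value, because the common total lay above the summed FPKM of each library. The number of members with a mean of at least 1 then rose from 4 to 5, with Tlr3, which follows from the change of unit. The count over all genes, 2, was 0 without a low-value filter, 1 with the filter at 5 FPKM, 1 with a pseudocount of 5, 5 with robust moderation and 26 to 83 with a library left out, where the remaining library borrows its spread from the other group. With the replicate number as a block it was 184, and 1 receptor partner (Ly96, limma adjusted p = 0.0169) and 2 targets (Cxcl2, 0.00128, and Il1b, 1.76e-06) were called. The labels do not say what the number stands for. The 4 Y-linked transcripts measured were present only in the libraries numbered 2, each at a higher level in WT 2 than in Tfam cKO 2. Deviations of same-numbered libraries correlated with r = 0.26 across genes, which are not independent. With a library left out, 0 to 1 receptor partners and 0 to 1 targets were called. The cause of these shifts was not tested. Depth limits the members under 1 FPKM, which had at most 67 effective fragments in a library.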
